A study of Mus musculus with 96 samples.

Results

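RevScapTKO hepatocytes were compared with RevDKO hepatocytes at ZT16, zeitgeber time 16, counted in hours after lights on. Lights went off at ZT12, so these cells were collected early in the dark phase, when mice feed. The comparison used 3 RevScapTKO and 3 RevDKO libraries, 6 of the 96 libraries of the series, and 3 Control libraries of the same time stand beside them. RevDKO hepatocytes are labelled as lacking the genes of 2 repressors of the circadian clock, REV-ERBα (Nr1d1) and REV-ERBβ (Nr1d2), and RevScapTKO hepatocytes as lacking Scap as well. Male C57BL/6J mice carried floxed alleles of Nr1d1 and Nr1d2, with floxed Scap in addition in the triple knockouts. At 8 weeks of age they were injected with an adeno-associated virus carrying Cre under the TBG promoter, which is active in hepatocytes, while Control mice received the same virus with GFP in place of Cre. Which floxed alleles the Control mice carried is not given in the sources used here. For the next 4 weeks every group, Control included, was kept on a high fat, high sucrose food, so no library here comes from a chow-fed animal. The methods call the libraries biological replicates, and the labels name no animals, so p-values measure the spread between these libraries.

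SCAP is the escort that carries the sterol regulatory element-binding proteins, SREBP-1 and SREBP-2, from the endoplasmic reticulum to the Golgi, where the site-1 and site-2 proteases release the part that enters the nucleus. INSIG proteins hold SCAP back when sterols are plentiful. In liver, SREBP-2 is best known for the genes of cholesterol synthesis and uptake, and SREBP-1c for the genes of fatty acid synthesis, which insulin induces after a meal. The comparison of RevScapTKO with RevDKO therefore asks what removing SCAP does to hepatocytes that are labelled as lacking the REV-ERBs already.

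Values are RPKTM, reads per kilobase of transcript scaled to 10000000 reads, after quantile normalization of the whole hepatocyte table. Differences are RevScapTKO minus RevDKO in log2(RPKTM + 1), and the added 1 makes the differences of weakly expressed genes smaller than their fold change. Of 25094 gene symbols in the table, 13325 exceeded 5 RPKTM in at least 3 of the 36 hepatocyte libraries and were tested with limma. A gene is said to have risen or fallen where its Benjamini-Hochberg adjusted p over these 13325 genes was under 0.05. The median difference of all genes tested was -0.0076.

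The libraries were those of hepatocytes. All 14 hepatocyte markers, such as Alb, Ttr and Cps1, were measured, and their summed level was 565418, 589709 and 704152 RPKTM in RevDKO and 550754, 509583 and 1361124 RPKTM in RevScapTKO. Quantile normalization gives every library the same set of values, so the most abundant transcripts move in steps. Alb took the highest of these values in RevScapTKO replicate 3 alone, where it made up 10.8% of the column sum, against 3.84% to 5.77% in the other ZT16 libraries. The mean log2(RPKTM + 1) of the 14 markers was 13.68, 13.80 and 13.63 in RevDKO and 13.54, 13.44 and 13.56 in RevScapTKO. Of the 14 markers 10 had a negative difference, 4 a positive one and 1 fell, with a median of -0.10. RNA of other liver cells was also present, with summed levels of macrophage markers of 1337, 1271 and 2311 RPKTM in RevDKO and 2231, 4283 and 4806 RPKTM in RevScapTKO. RevScapTKO replicates 2 and 3 were thus higher than every RevDKO library. In bulk RNA a change in the number of cells of a type cannot be told apart from a change in RNA per cell.

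Among the targeted genes, Scap fell and neither REV-ERB gene passed the test between the groups. Scap (NM_001103162, chr9:110235792-110287453, plus strand, mm9) measured 533, 447 and 488 RPKTM in the 3 RevDKO libraries and 238, 161 and 217 RPKTM in the 3 RevScapTKO libraries. Every RevScapTKO library was below every RevDKO library, and the difference was -1.27 ± 0.29 (SE, adjusted p = 0.0126). Control libraries held 495, 395 and 509 RPKTM of Scap. The call was lost without RevDKO replicate 1 and without RevScapTKO replicate 2 (adjusted p up to 0.114), with the marker covariate and with the 24 libraries of both knockouts alone, while the difference stayed between -1.38 and -1.10 under every alternative. Nr1d1 measured 16.005, 12.1 and 6.14 RPKTM in Control, 65.4, 62.5 and 70.5 in RevDKO and 109, 55.3 and 124 in RevScapTKO. At ZT16 the libraries labelled as knockouts were thus higher than every Control library, and the reason was not tested. Nr1d2 measured 200.3, 153 and 106 RPKTM in Control, 294, 271 and 308 in RevDKO and 353, 310.3 and 450.3 in RevScapTKO, again with every library labelled as a knockout above Control. At ZT4, where Control was highest for Nr1d1, its means were 257, 244 and 195 RPKTM in Control, RevDKO and RevScapTKO. At ZT10, where Control was highest for Nr1d2, the means were 392, 393 and 380 RPKTM in Control, RevDKO and RevScapTKO. The paper reports the expression of both genes as markedly reduced in hepatocytes. The figure it cites shows relative mRNA levels, labelled as from livers, so measure and samples may differ from those here. The table sums reads over whole transcripts, and which exons the floxed alleles flank is not given in the sources used here. Between RevScapTKO and RevDKO neither gene passed the test (Nr1d1 0.46 ± 0.50, adjusted p = 0.782; Nr1d2 0.34 ± 0.39, adjusted p = 0.8).

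At ZT16, 183 of 13325 genes passed the test, which is 1.37%. Of these, 152 (1.14% of genes tested) were lower in RevScapTKO and 31 (0.233%) were higher. At an unadjusted p under 0.05 there were 1607 genes (12.1%). The 3 RevScapTKO and 3 RevDKO libraries did not overlap for 180 of the 183, against 2444 (18.3%) of all genes tested, 1162 of them higher in RevScapTKO (8.72%), and the 3 that overlapped were Ehhadh, Lipg and Nfkbie. The count depended on single libraries: it was 116 without RevDKO replicate 1 and 382 without RevScapTKO replicate 1, whose summed macrophage, endothelial, stellate and cell cycle markers were the lowest of its group. The genes around SREBP were taken as 5 lists: its activation machinery, the mevalonate arm and the squalene arm of cholesterol synthesis, fatty acid synthesis, and the desaturases and elongases. Together they held 60 genes tested. Of these 39 fell and 0 rose, with a median difference of -1.90. Under the alternatives run 35 to 40 of these genes fell, with 36 falling without RevScapTKO replicate 3. The 20 other pathway lists held 361 genes tested, of which 18 fell and 3 rose, with a median of -0.09. All lists were chosen with earlier results of these data known.

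**Figure D1:**
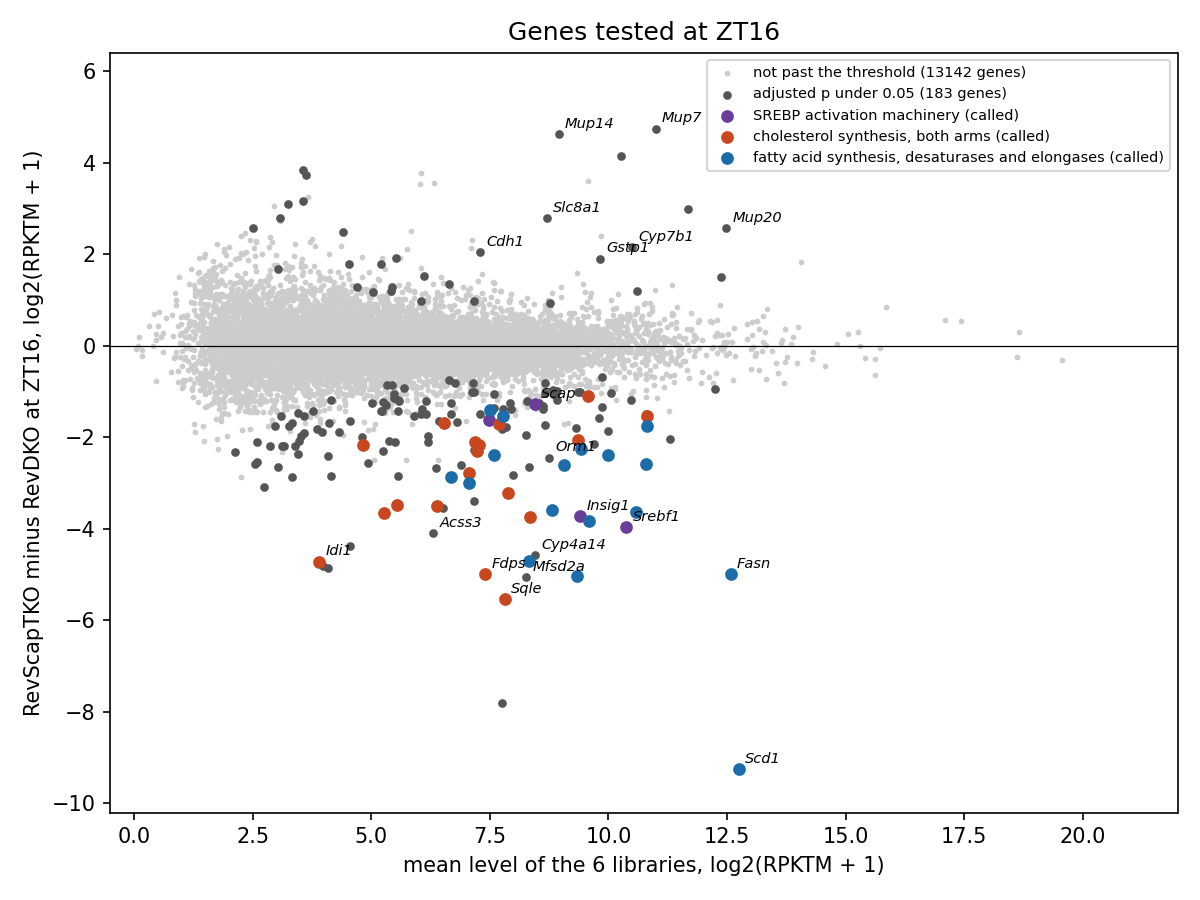
Difference between RevScapTKO and RevDKO at ZT16 (vertical axis, log2(RPKTM + 1)) against the mean level of the 6 libraries (horizontal axis, log2(RPKTM + 1)) for the 13325 genes tested. Light grey points are the 13142 genes that did not pass the test and dark points the 183 that did, of which the coloured ones are the 39 in the SREBP machinery (purple), cholesterol synthesis (orange) and fatty acid synthesis, desaturase and elongase (blue) lists. The largest fall is that of Scd1 at -9.25, and the Mup genes lie at the top.

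Of the 7 genes of the SREBP activation machinery, 4 fell and 0 rose, with a median of -1.27. Srebf1, which encodes SREBP-1, measured 2299.6, 2221 and 2816 RPKTM in RevDKO and 439.9, 90.3 and 94.2 RPKTM in RevScapTKO. The first RevScapTKO library was the highest of its group and still far below RevDKO, and the difference was -3.96 ± 0.38 (adjusted p = 1.01e-08). Insig1, the INSIG gene that SREBPs themselves induce, measured 1519, 1249 and 990.4 RPKTM in RevDKO and 141, 73.6 and 76.7 RPKTM in RevScapTKO. These groups did not overlap either, with a difference of -3.72 ± 0.34 (adjusted p = 3.71e-09). Srebf2, which encodes SREBP-2, fell less, by 1.62 ± 0.28 (adjusted p = 0.000478), from 229, 376 and 211 to 83.4, 78.7 and 92.4 RPKTM. The 3 members that did not pass were Insig2 (-0.43 ± 0.26, adjusted p = 0.535) and the genes of the site-1 and site-2 proteases, Mbtps1 (0.27, 95% interval -0.17 to 0.72) and Mbtps2 (-0.17, 95% interval -0.82 to 0.49).

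Cholesterol synthesis fell along nearly its whole length. Of 22 enzymes tested over both arms, 18 fell and 0 rose, with a median of -2.17, and 17 to 19 fell under every alternative. In the mevalonate arm, which builds isoprenoid units from acetyl-CoA, 7 of 9 fell. Fdps, which joins isoprenoid units into farnesyl diphosphate, measured 466, 328 and 187 RPKTM in RevDKO and 11.01, 8.98 and 6.56 RPKTM in RevScapTKO. The RevDKO libraries differed among themselves by more than the RevScapTKO libraries did, and the groups were far apart (difference -4.99 ± 0.33, adjusted p = 3.06e-12). Idi1, the isomerase before it, went from 34.6, 36.1 and 13.4 RPKTM to 0, 0 and 0.0480 RPKTM, so that 2 RevScapTKO libraries list it at 0 and its difference of -4.71 depends on the pseudocount. Mvd (-3.65), Pmvk (-3.47), Mvk (-2.17) and Acat2 (-1.68) also fell. Hmgcs1 was listed at 5.43 RPKTM or less in every ZT16 library shown and did not pass (-1.01 ± 0.41, adjusted p = 0.298). Ggps1, which leads from farnesyl diphosphate to protein prenylation rather than to sterols, measured 59.4, 60.1 and 56.9 RPKTM in RevDKO and 60.01, 57.9 and 60.1 RPKTM in RevScapTKO, with a difference of 0.01 and a 95% interval of -0.97 to 0.998. That interval rests on the spread over all 36 libraries of the fit.

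In the arm from squalene to cholesterol 11 of 13 enzymes fell. Sqle, squalene epoxidase and the second rate-controlling step, measured 603, 395 and 315 RPKTM in RevDKO and 3.04, 7.82 and 19.9 RPKTM in RevScapTKO. The highest RevScapTKO library was far below the lowest RevDKO library, and the difference of -5.54 ± 0.48 was the largest among the enzymes of both arms (adjusted p = 1.27e-09). Cyp51 (-3.74 ± 0.36), Msmo1 (-3.22 ± 0.32) and Nsdhl (-3.51 ± 0.34), which strip methyl groups from lanosterol, also fell. Fdft1, which makes squalene, held 294, 274 and 146 RPKTM in RevDKO and 51.4, 51.6 and 53.4 RPKTM in RevScapTKO (-2.10 ± 0.30). Lss, which closes the sterol rings (-2.17 ± 0.32), Tm7sf2, a sterol reductase (-2.77 ± 0.45), and Hsd17b7 (-1.71 ± 0.27) fell. Of the last enzymes of the arm, Dhcr7 fell by 2.29 ± 0.33 and Sc5d by 1.09 ± 0.26. The call of Sc5d was lost without any one of 4 libraries (RevDKO replicates 1 and 2, RevScapTKO replicates 2 and 3). Lbr (-0.75 ± 0.21, adjusted p = 0.0626), which is also a protein of the nuclear lamina, and Ebp (-0.64 ± 0.52, adjusted p = 0.682) did not pass, although their groups did not overlap. Lbr passed with the stricter filter and with library weights.

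The promoter of Sqle is shown because the gene had the largest fall among the cholesterol enzymes and its window holds the more frequent of the motifs searched. The 250 bases before the transcript start given in the table are printed 5′ to 3′ in the direction of transcription, from mm9. Windows of all genes tested were searched on either strand for TCACNCCA, the core of the sterol regulatory element, and for CCAAT, the box bound by the factor NF-Y, and capitals mark matches. The motifs were settled after looking at promoters of this pathway.
Sqle, chr15:59146397-59146646, plus strand: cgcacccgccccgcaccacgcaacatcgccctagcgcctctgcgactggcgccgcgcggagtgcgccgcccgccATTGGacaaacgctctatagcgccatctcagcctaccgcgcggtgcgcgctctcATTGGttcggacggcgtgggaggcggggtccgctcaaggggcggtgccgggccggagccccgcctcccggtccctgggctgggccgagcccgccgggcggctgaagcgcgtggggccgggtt
The window of Sqle held 2 CCAAT boxes and no sterol element. Over the 13309 tested genes with a window, 3.01% held the sterol element and 35.9% held a CCAAT box. Of the 152 genes that fell, 15 (9.87%) held the sterol element and 78 (51.3%) a CCAAT box, and of the 31 that rose, 1 (3.23%) and 11 (35.5%) did. Among the cholesterol enzymes of both arms 2 of 21 windows held the sterol element and 17 (81.0%) a CCAAT box. In pathway lists where no gene passed the test, the share with a CCAAT box ran from 20.8% (secreted hepatokines) to 70.6% (cell cycle). It was 66.7% for the unfolded protein and integrated stress response. A match is a run of letters and not a measured site, and the motifs can overlap, since the first may end in CCA and CCAAT begins with it.

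Cholesterol uptake and trafficking held 13 genes tested, of which 3 fell and 0 rose, with a median of -0.17. Stard4, a cytosolic sterol carrier, fell by 2.83 ± 0.26 (adjusted p = 7.53e-09). The HDL receptor Scarb1 held 469.6, 514 and 543 RPKTM in RevDKO and 585, 395 and 395 RPKTM in RevScapTKO, which overlapped (-0.17, 95% interval -0.55 to 0.21). Of 8 genes around the oxysterol receptor LXR and sterol efflux, only Lpcat3 passed the test. Lpcat3, which loads polyunsaturated chains into phospholipids, held 309.7, 257 and 261 RPKTM in RevDKO and 134, 97.8 and 90.8 RPKTM in RevScapTKO (-1.37 ± 0.18, adjusted p = 4.56e-06). Abcg1, a sterol exporter, had a difference of 0.64 ± 0.27 (adjusted p = 0.331).

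Fatty acid synthesis fell with cholesterol synthesis: 11 of 15 genes tested fell and 0 rose, with a median of -2.38. Fasn, fatty acid synthase, measured 16763, 7905 and 10848 RPKTM in RevDKO and 434, 487 and 213 RPKTM in RevScapTKO. The RevDKO libraries spread widely, with the first the highest, and all lay far above RevScapTKO (-4.98 ± 0.50, adjusted p = 2.57e-08). Acacb, the acetyl-CoA carboxylase of the mitochondrial surface, measured 820.4, 481 and 536 RPKTM in RevDKO and 11.1, 51.95 and 17.6 RPKTM in RevScapTKO. Its second RevScapTKO library was the highest of that group (-4.71 ± 0.49, adjusted p = 6.56e-08). Acaca, the cytosolic carboxylase, fell by 2.25 ± 0.42, from 1442, 900.3 and 1039.9 to 261, 344 and 138 RPKTM. The genes that supply acetyl-CoA fell as well: Acly, ATP citrate lyase (-2.59 ± 0.33), Acss2, which uses acetate (-2.60 ± 0.32), and the citrate carrier Slc25a1 (-1.54 ± 0.17). Thrsp (-3.63 ± 0.67) and its relative Mid1ip1 (-2.9996 ± 0.68) fell, although both spread widely within RevScapTKO, where Thrsp held 575, 362 and 46.6 RPKTM and Mid1ip1 53.5, 28.4 and 13.7 RPKTM. Mid1ip1 lost its call without RevDKO replicate 1 or without RevScapTKO replicate 3. Me1, malic enzyme, a source of NADPH, fell by 2.38 ± 0.49, and its call was lost without RevDKO replicate 1 (adjusted p = 0.0541). The other NADPH sources did not pass: Pgd had a difference of -1.09 ± 0.47 (adjusted p = 0.333) and G6pdx of 0.30 ± 0.26 (adjusted p = 0.709). Mlxipl, which encodes the carbohydrate-sensing factor ChREBP, held 843, 734 and 698 RPKTM in RevDKO and 924, 715 and 485 RPKTM in RevScapTKO, which overlapped (-0.14, 95% interval -0.82 to 0.53). The acyl-CoA synthetases Acsl3 (-2.86 ± 0.35) and Acsl5 (-1.74 ± 0.24) fell. Cd36, a fatty acid transporter, did not pass (adjusted p = 0.995).

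Among desaturases and elongases 6 of 16 genes fell and 0 rose, with a median of -0.36. Scd1 (NM_009127, chr19:44468940-44482199, minus strand), the stearoyl-CoA desaturase that makes oleate, measured 15851, 4394 and 21193 RPKTM in RevDKO, with replicate 2 the lowest. In RevScapTKO it measured 19.6, 17.003 and 16.6 RPKTM, nearly the same in each library. The difference of -9.25 ± 0.52 was the largest of all genes tested (adjusted p = 4.51e-14). The desaturases of polyunsaturated fatty acids fell too. Fads1 went from 1428, 919.7 and 1406 RPKTM to 15.4, 49.7 and 61.6 RPKTM (-5.04 ± 0.44, adjusted p = 2.27e-09), and Fads2 from 1880.3, 1428 and 1832 RPKTM to 260.3, 331 and 393 RPKTM (-2.39 ± 0.30, adjusted p = 3.11e-06). The first RevScapTKO library was the lowest for both. Elovl5 (-3.83 ± 0.48) and Elovl6 (-3.58 ± 0.62), which elongate polyunsaturated and saturated chains, and Tecr (-1.40 ± 0.28), the last enzyme of the elongation cycle, fell. Tecr lost its call without RevScapTKO replicate 3. The other elongases tested did not pass. Elovl3 held 1827, 1545 and 1027 RPKTM in RevDKO and 2215, 2326 and 1556 RPKTM in RevScapTKO, which overlapped (0.49, 95% interval -1.05 to 2.03), and Elovl2 had a difference of -0.38 (95% interval -0.80 to 0.04). Elovl7 was low in RevDKO, at 0, 1.08 and 1.22 RPKTM, and measured 2.69, 39.1 and 25.7 RPKTM in RevScapTKO. The groups did not overlap, and the difference of 3.25 ± 0.89 did not pass (adjusted p = 0.0647). It did pass with library weights, with the replicate block and without RevScapTKO replicate 1. Scd2, the desaturase of other tissues, stood at 16.6, 11.1 and 33.998 RPKTM in RevDKO and 25.3, 29.7 and 50.2 RPKTM in RevScapTKO (0.82, adjusted p = 0.48).

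**Figure D2:**
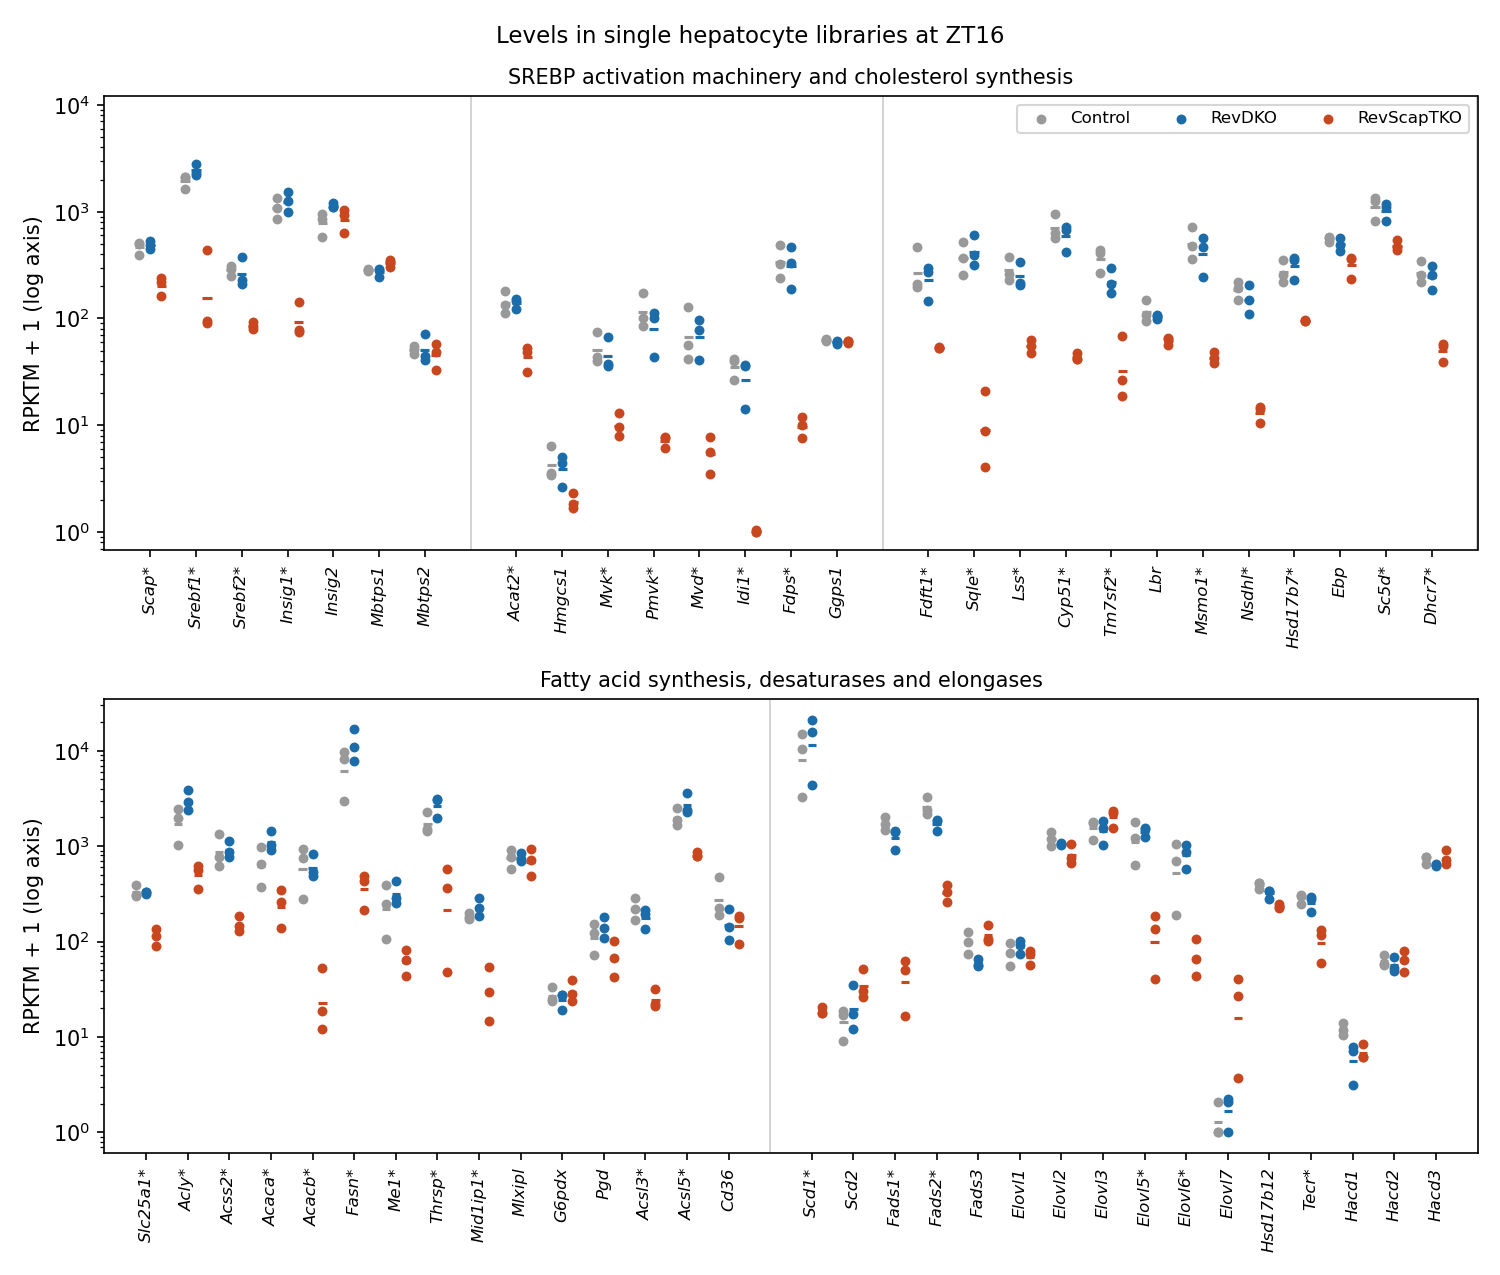
Level of 58 of the 60 tested genes of the 5 SREBP and lipid synthesis lists in single ZT16 libraries (vertical axis, RPKTM + 1, log axis). Grey, blue and orange points are the 3 Control, RevDKO and RevScapTKO libraries, short bars their geometric means, and an asterisk marks a gene that passed the test between RevScapTKO and RevDKO. For the 37 marked genes every orange point lies below every blue point.

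In the lists of triglyceride synthesis, of lipid droplets and lipases, and of apolipoproteins and VLDL assembly, 3 genes fell. Of 15 triglyceride synthesis genes 2 fell, both encoding the first enzyme of the pathway, glycerol-3-phosphate acyltransferase. Gpam, its mitochondrial form, held 2348, 3334 and 2234 RPKTM in RevDKO and 971, 916 and 880.2 RPKTM in RevScapTKO, tight in RevScapTKO and not overlapping (-1.49 ± 0.23, adjusted p = 9.71e-05). Gpat4, the form of the endoplasmic reticulum, held 872, 898 and 945 RPKTM in RevDKO and 665, 75.4 and 343 RPKTM in RevScapTKO. The difference was -1.80 ± 0.40 (adjusted p = 0.0104), but RevScapTKO replicate 2 was by far the lowest, and without it the difference was -0.92 and did not pass (adjusted p = 0.145). Dgat2, the last step, did not pass (-0.24, 95% interval -0.63 to 0.14). Of 20 genes of lipid droplets and lipases only Pnpla3 fell, from 35.1, 38.5 and 17.003 to 3.79, 2.96 and 2.69 RPKTM (-2.84 ± 0.69, adjusted p = 0.0237), and its call was lost without any one of 4 libraries (RevDKO replicates 1 and 2, RevScapTKO replicates 2 and 3). Plin2, the main droplet coat of hepatocytes, had a difference of -0.38 (95% interval -0.85 to 0.10). None of 16 apolipoprotein and VLDL assembly genes passed, and 1 fell without RevScapTKO replicate 2. Mttp, which loads lipid onto apolipoprotein B, had a difference of -0.41 (95% interval -0.87 to 0.05), and the largest difference of the list was that of Tm6sf2, a factor of VLDL lipidation named after its values were seen (-1.13 ± 0.31, adjusted p = 0.068).

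Mfsd2a, a transporter of lysophosphatidylcholine that carries docosahexaenoic acid, was the only one of 18 phospholipid and methionine cycle genes to pass. It measured 600.0, 639 and 465 RPKTM in RevDKO and 9.18, 116 and 3.12 RPKTM in RevScapTKO, where replicate 2 was the highest and still below RevDKO (-5.05 ± 0.93, adjusted p = 0.00117). Pcyt1a, which controls phosphatidylcholine synthesis, did not pass (-0.33 ± 0.15, adjusted p = 0.378). Of 19 genes of bile acid synthesis and transport 1 rose and 0 fell. Cyp7b1, the hydroxylase of the alternative bile acid pathway, which also acts on oxysterols, measured 526, 663 and 421 RPKTM in RevDKO and 2864, 2059.8 and 2186 RPKTM in RevScapTKO. All RevScapTKO libraries were above all RevDKO libraries (2.15 ± 0.51, adjusted p = 0.0191). The call was lost without any one of 4 libraries (RevDKO replicates 1 and 3, RevScapTKO replicates 1 and 3), with a difference between 1.99 and 2.39 under every alternative. Cyp7a1, the rate-limiting enzyme of the main pathway, overlapped between the groups (-0.28 ± 0.53, adjusted p = 0.892).

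Fatty acid oxidation and ketogenesis held 26 genes tested, of which 3 fell, with a median of -0.35. The median was -0.18 without RevDKO replicate 2, -0.22 without RevScapTKO replicate 2 and -0.19 with the marker covariate. The 2 largest falls were of the omega-hydroxylases that PPARα is known to induce. Cyp4a14 held 490.1, 704 and 760.3 RPKTM in RevDKO and 22.03, 122 and 5.97 RPKTM in RevScapTKO (-4.57 ± 0.81, adjusted p = 0.000676). Cyp4a10 held 219, 229 and 327 RPKTM in RevDKO and 33.5, 36.4 and 10.1 RPKTM in RevScapTKO (-3.39 ± 0.56, adjusted p = 0.000235). No RevScapTKO library of either gene reached RevDKO, and Control lay above RevDKO, at 961, 1168 and 1845 RPKTM of Cyp4a14 and 786, 719 and 1175 RPKTM of Cyp4a10. Both genes are close relatives, so reads could be shared between them. Ehhadh, of the peroxisomal pathway, fell by 1.08 ± 0.28 (adjusted p = 0.0432), but RevScapTKO replicate 1 at 582 RPKTM lay among the RevDKO libraries, and the call was lost without any single library other than this one, and with the marker covariate, where the difference was -0.71 (adjusted p = 0.313). Cpt1a, the gate of mitochondrial oxidation, did not pass (0.37 ± 0.22, adjusted p = 0.53).

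Glucose, glycogen and fructose genes held 19 tested, of which 1 fell, with a median of -0.67 and 16 of 19 negative. Without RevScapTKO replicate 3 the median was -0.37. Pklr, liver pyruvate kinase, measured 1585, 1031 and 1361 RPKTM in RevDKO and 394, 439.5 and 146 RPKTM in RevScapTKO, with replicate 3 the lowest and no overlap (-2.15 ± 0.54, adjusted p = 0.0291). Its call was lost without any RevDKO library and without RevScapTKO replicate 3. None of 17 insulin and feeding response genes passed. Trib3, which the stress response list below also holds, rose with the replicate block, with library weights and without RevScapTKO replicate 1. In the last case 1 other member fell. Irs2 spread widely, at 189, 236 and 153 RPKTM in RevDKO and 258, 17.4 and 124 RPKTM in RevScapTKO (-1.18 ± 0.59, adjusted p = 0.421).

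Of 21 clock genes only Bhlhe40 fell. Bhlhe40, which encodes the repressor DEC1, held 661, 369 and 524 RPKTM in RevDKO and 251, 274 and 137 RPKTM in RevScapTKO, without overlap (-1.25 ± 0.29, adjusted p = 0.0148). Its call was lost without RevDKO replicate 1 or 3 or RevScapTKO replicate 3, with the marker covariate and with fewer libraries in the fit (the 6 compared or the 24 of both knockouts), with adjusted p up to 0.212. Arntl, which encodes the clock activator BMAL1, held 63.1, 89.5 and 99.2 RPKTM in Control, 123, 142 and 140.3 RPKTM in RevDKO and 117, 109.9 and 113 RPKTM in RevScapTKO. It was above Control in every knockout library, and the difference between the knockouts was -0.25 (95% interval -0.78 to 0.28). Per2 overlapped between RevScapTKO and RevDKO (-0.43, adjusted p = 0.598).

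None of 24 secreted hepatokines passed. Of 24 genes of the unfolded protein and integrated stress response none passed, with the chaperone Hspa5 at 0.38 ± 0.24 and the stress gene Trib3 at 1.45 ± 0.40 (adjusted p = 0.0695). Trib3 did pass with the replicate block (adjusted p = 0.0188), with library weights (adjusted p = 0.00781) and without RevScapTKO replicate 1 (adjusted p = 0.0124). Of 22 acute phase genes only Orm1, a plasma glycoprotein, fell, from 729, 692 and 702 to 216, 170.4 and 58.6 RPKTM (-2.44 ± 0.46, adjusted p = 0.00147). The Orm genes are near-identical neighbours, so reads could be shared among them. Fgb, a fibrinogen chain, had a difference of -0.38 ± 0.28. Of 38 drug metabolism genes 2 rose and 1 fell. Gstp1, a glutathione transferase, measured 494, 339.8 and 325 RPKTM in RevDKO and 1572, 1218 and 1513 RPKTM in RevScapTKO, clearly apart (1.91 ± 0.27, adjusted p = 2.15e-05). Abcc12, a transporter of the ABC family, was listed at 0 in every RevDKO and Control library of ZT16 and at 1.40, 18.6 and 48.1 RPKTM in RevScapTKO. Its call was lost without any single library other than RevScapTKO replicate 1. Gstt1, another glutathione transferase, fell by 1.49 ± 0.36, from 278, 189 and 223 to 112, 69.9 and 65.7 RPKTM (adjusted p = 0.0199), a call lost without RevDKO replicate 1 or 3 or RevScapTKO replicate 2 or 3.

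Hepatocytes differ in their genes between the central vein and the portal side of the liver lobule. Of 12 pericentral genes none passed, with a median of -0.06 that lay between -0.12 and 0.11 under the alternatives. Of 12 periportal genes 3 fell, with a median of -0.83, while their summed level was 70598, 84858 and 72542 RPKTM in RevDKO and 63007, 63990.2 and 40798 RPKTM in RevScapTKO. Without RevScapTKO replicate 3, the lowest, the count was 0 and the median -0.46. Ass1, of the urea cycle, held 1938, 1880.3 and 2112 RPKTM in RevDKO and 855, 1121 and 688 RPKTM in RevScapTKO (-1.18 ± 0.25, adjusted p = 0.00611). Gls2, liver glutaminase (-1.33 ± 0.30), and Sds, serine dehydratase (-1.95 ± 0.50), also fell. Sds held 365, 537 and 424 RPKTM in RevDKO and 279, 205 and 24.5 RPKTM in RevScapTKO, and without RevScapTKO replicate 3 its difference was -0.87 (adjusted p = 0.494). Its call was also lost without any one RevDKO library, and that of Gls2 without RevDKO replicate 2. Cyp2f2, another periportal gene, overlapped (-0.30 ± 0.29). The difference between the lists was not tested.

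**Figure D3:**
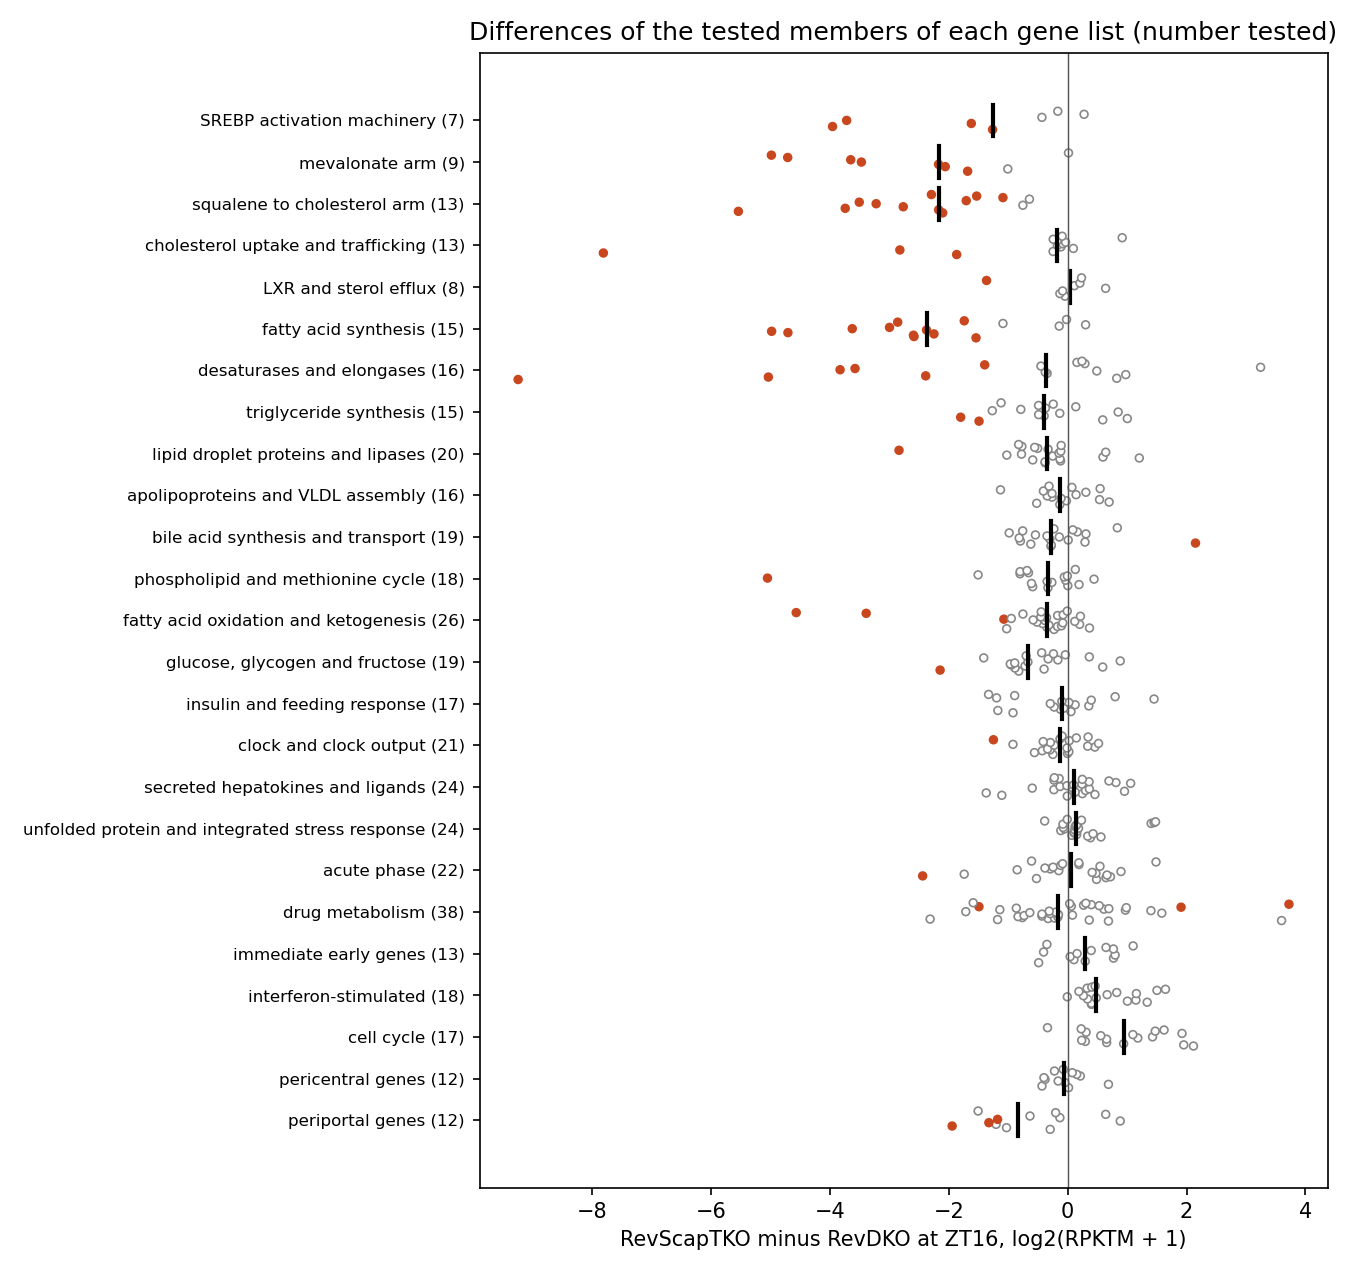
Difference between RevScapTKO and RevDKO at ZT16 (horizontal axis, log2(RPKTM + 1)) of every tested member of the 25 pathway lists, with the number tested in brackets. Filled points passed the test, open points did not, and the black bar is the list's median. The medians lie furthest to the left in both arms of cholesterol synthesis and in fatty acid synthesis, at -2.17, -2.17 and -2.38.

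Outside the lists, 95 genes fell and 28 rose. By the rule for named genes, the 10 largest falls among the 60 eligible were led by Acss3, a mitochondrial acyl-CoA synthetase, at 124, 169.9 and 152 RPKTM in RevDKO and 5.81, 8.29 and 9.42 RPKTM in RevScapTKO. The groups were far apart, with a difference of -4.09 ± 0.48 (adjusted p = 6.49e-07). Hamp2, a relative of the iron hormone hepcidin, fell by 3.54 ± 0.55, from 121, 156 and 225 to 11.6, 22.3 and 8.29 RPKTM. Further falls were those of Aacs, acetoacetyl-CoA synthetase, which feeds ketone carbon into lipid synthesis (-2.65 ± 0.43), and Rdh11, a retinol dehydrogenase (-2.61 ± 0.35). Acss2os (-2.57 ± 0.39) is annotated opposite Acss2, and since it is not stated whether counting used the strand, its reads cannot be told apart from those of Acss2. Cyp39a1, an oxysterol hydroxylase of bile acid synthesis that the lists did not hold, fell by 2.28 ± 0.55, but its call was lost without RevDKO replicate 1 or 3 or RevScapTKO replicate 1 or 3. Gstt3 (-2.84), a glutathione transferase, Utp14b (-2.68), which lies within Acsl3 so that reads could be shared, and Glb1 (-2.10), lysosomal beta-galactosidase, also fell.

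Of the 10 largest rises among the 18 eligible, 4 were major urinary protein genes, which encode pheromone carriers that male mouse liver secretes. Mup20 (darcin) measured 1784, 1653 and 1404 RPKTM in RevDKO and 6877, 12269.9 and 10499.8 RPKTM in RevScapTKO. Control held 1265, 1411 and 1034 RPKTM, so that RevScapTKO stood above both other genotypes (2.58 ± 0.35 against RevDKO, adjusted p = 1.02e-05). Mup7 measured 2447, 981 and 751 RPKTM in Control, 79.4, 173 and 93.9 RPKTM in RevDKO and 8046, 1193 and 2678 RPKTM in RevScapTKO. It was lower in every RevDKO library than in any other library shown, and RevScapTKO overlapped Control (4.75 ± 1.12, adjusted p = 0.0193). Mup14 (4.62 ± 0.81) and Mup11 (4.15 ± 1.07, adjusted p = 0.0408) had the same order, with Mup14 at 758, 354 and 309, 40.9, 76.9 and 11.6 and 1461, 453 and 924 RPKTM in Control, RevDKO and RevScapTKO. Mup7, Mup11 and Mup14 are near-identical copies, so their reads could be shared and the split among them is uncertain, and the split of calls is too. The call of Mup7 was lost without RevDKO replicate 1 or 3 or RevScapTKO replicate 1 or 3, and that of Mup11 without any one library other than RevScapTKO replicate 3. Selenbp2, a selenium-binding protein, held 1154, 1572 and 175 RPKTM in RevDKO and 6999.6, 4584 and 5118 RPKTM in RevScapTKO (3.002 ± 0.70). Its call was lost without RevDKO replicate 3, the lowest, or without RevScapTKO replicate 3. Cdh1, E-cadherin, measured 245, 207 and 203 RPKTM in Control, 66.2, 63.6 and 48.7 RPKTM in RevDKO and 190.2, 296 and 265 RPKTM in RevScapTKO. RevDKO was below both, with 2.04 ± 0.39 between the knockouts (adjusted p = 0.00191) and -1.87 between RevDKO and Control (adjusted p = 0.018). Slc8a1, a sodium-calcium exchanger, rose from 79.9, 98.2 and 113 to 368, 1118 and 719 RPKTM (2.78 ± 0.59), and its call was lost without RevScapTKO replicate 2 (adjusted p = 0.0693). Gm3219 (1.93), whose call was lost without RevDKO replicate 1 or 2 or RevScapTKO replicate 2 or 3, Fkbp11 (1.79), a prolyl isomerase of the endoplasmic reticulum, and Ncoa4 (1.53), the receptor that delivers ferritin for breakdown, complete the 10.

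The Control libraries of the same time place these genes. RevDKO and Control differed in 40 genes (0.300%), and RevScapTKO and Control in 432 (3.24%), of which 303 (2.27%) were lower in RevScapTKO. These contrasts share libraries with the one above, so their values are only set side by side. Of the 152 genes lower in RevScapTKO than in RevDKO, 120 were also lower than in Control, and 85 had a positive difference between RevDKO and Control. Of the 39 called genes of the 5 lists, the mean Control level was above the mean RevDKO level in 23, and none of the 60 genes tested passed the test between RevDKO and Control. Scd1 measured 3271, 10499.8 and 14999.5 RPKTM in Control and Fasn 2966, 9799 and 8155 RPKTM, which overlap the RevDKO values of both genes. Sqle measured 256, 367 and 525 RPKTM in Control, again overlapping RevDKO. Only Ppard, a nuclear receptor of fatty acids named here after its values were seen, was both lower in RevScapTKO than in RevDKO and higher in RevDKO than in Control. It measured 19.7, 35.5 and 36.9 RPKTM in Control, 141, 110.2 and 137 RPKTM in RevDKO and 51.5, 41.1 and 32.1 RPKTM in RevScapTKO. Of the 31 that rose, 18 were also higher than in Control, and 2, Cdh1 and Mup14, were lower in RevDKO than in Control.

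The differences at ZT16 were set against those of the other 18 libraries of the same genotypes, collected at ZT4, ZT10 and ZT22. Of the 152 genes that fell at ZT16, 149 had a negative difference at all 3 other times, and 114, 68 and 110 passed the test in the same direction at ZT4, ZT10 and ZT22. Of all genes tested, 1237 (9.28%), 121 (0.908%) and 313 (2.35%) passed in either direction at these times. Of the 31 that rose, 26 had a positive difference at all 3 other times, and 16, 6 and 10 passed. All 39 called genes of the 5 lists were lower at every other time, and 37, 34 and 38 of them passed at ZT4, ZT10 and ZT22. Scd1 differed by -8.70 at ZT4, -8.03 at ZT10 and -9.68 at ZT22, and Srebf1 by -3.74, -3.87 and -4.69. In RevDKO the mean level of Scd1 was 13813 ± 8583 RPKTM (SD, n = 3) at ZT16 and 3633 ± 1693 at ZT4, while in RevScapTKO it was 17.7 ± 1.61 at ZT16 and 8.25 ± 5.16 at ZT4.

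The test of the ZT16 difference against the mean of the other 3 times found 0 of 13325 genes (0.00%) with limma, and 408 (3.06%) at an unadjusted p under 0.05. The smallest adjusted p was 0.9996, so no gene was shown to differ in its response between ZT16 and the other times. Of the 39 genes, 2 were under 0.05 before adjustment, Acsl3 (difference from the other times 1.14) and Msmo1 (1.05), both with a smaller fall at ZT16. Among the 10 genes with the smallest unadjusted p in this limma test were Acss3, Zbtb18, Mup7, Zfp59, Mup14, Cks2, Gpr135, Tnik and Ddhd2. Acss3 differed by -4.09 at ZT16 and by -1.75, -1.80 and -2.11 at ZT4, ZT10 and ZT22 (unadjusted p = 0.000375). Mup7 differed by 4.75 at ZT16 and by -2.83, 1.19 and 0.55 at the other times (unadjusted p = 0.000428). In RevDKO its mean was 115 ± 50.3 RPKTM (SD, n = 3) at ZT16 and between 728 and 1690 RPKTM at the other times. Cks2, a cell cycle gene, had a difference of -1.36 at ZT16 and of -0.22, 0.81 and 0.12 at the others.

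**Figure D4:**
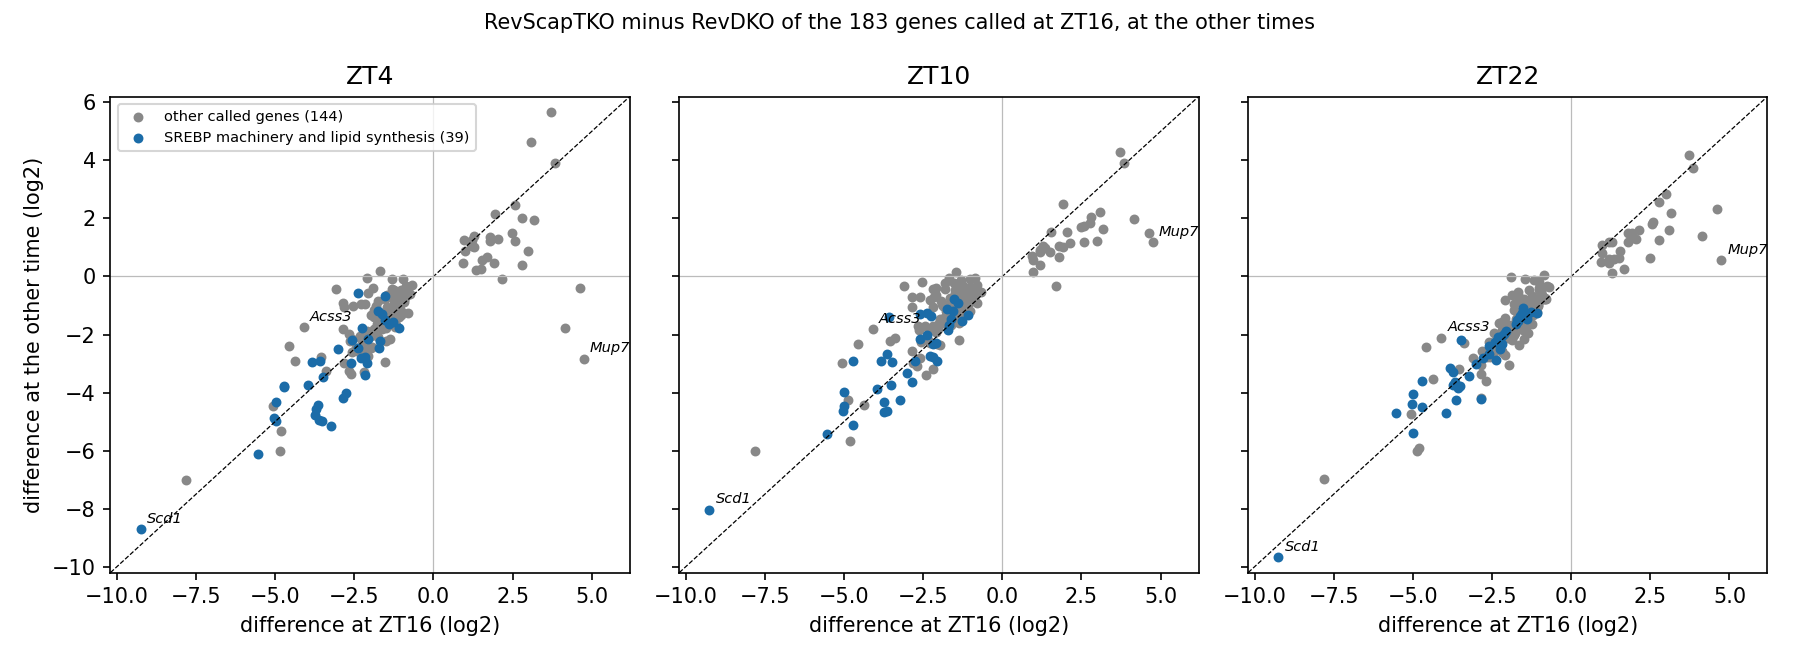
Difference between RevScapTKO and RevDKO at ZT4, ZT10 and ZT22 (vertical axes) against that at ZT16 (horizontal axes) for the 183 genes that passed the test at ZT16, all as log2(RPKTM + 1). Blue points are the 39 genes of the SREBP machinery and lipid synthesis lists, grey points the other 144, and the dashed line marks equal differences. All blue points lie below 0 at each time, and Mup7, at 4.75 at ZT16, lies far below the line at each.

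Most markers of other liver cells and of dividing cells had a positive difference, and none of them passed the test with all libraries and equal library weights. All 15 macrophage markers had a positive difference, with a median of 1.03, and so had 10 of 12 endothelial markers (0.54) and 13 of 13 stellate and fibroblast markers tested (0.39), against 6552 of all 13325 genes. The summed macrophage level ranged from 1271 to 2311 RPKTM in RevDKO and from 2231 to 4806 in RevScapTKO, where replicate 1 lay among the RevDKO libraries. Endothelial markers summed to 2637 to 4424 RPKTM in RevDKO and 3298 to 6466 in RevScapTKO, and stellate markers to 1420 to 2535 and 1976 to 4720. The 40 tested markers of the 3 cell types had a median of 0.71, which was 0.44 without RevDKO replicate 2, 0.47 without RevScapTKO replicate 3, 1.02 without RevScapTKO replicate 1 and 1.035 without RevDKO replicate 3. Of these 40 markers 5 passed as higher with library weights and 2 without RevScapTKO replicate 1. With the mean level of these markers as a covariate, 144 genes passed, 121 of them among the 183, and 36 of the 60 genes of the 5 lists fell. Interferon-stimulated genes were positive in 17 of 18 with a median of 0.47. None passed, while 3 did as higher with library weights, and the median was 0.27 with the marker covariate. Cell cycle genes were positive in 16 of 17 with a median of 0.94. None passed, while 4 did as higher with library weights and 1 without RevScapTKO replicate 1. The median was 0.50 without RevScapTKO replicate 3, 1.61 without RevScapTKO replicate 1 and 0.60 with the marker covariate. Their summed level was 235, 405 and 977 RPKTM in RevScapTKO against 221, 259 and 219 RPKTM in RevDKO, so replicate 3 held the most. Mki67, a marker of proliferation, measured 13.4, 11.1 and 15.4 RPKTM in RevDKO and 18.6, 58.7 and 198 RPKTM in RevScapTKO (2.12 ± 0.87, adjusted p = 0.298), and it passed with library weights (adjusted p = 0.0288). Cholangiocyte markers had 3 of 8 tested and neutrophil markers 3 of 7, none of which passed. Immediate early genes, which respond within minutes to stress during isolation, had 13 of 17 tested, a median of 0.29 and no gene past the test under any alternative. Their median was 0.0167 without RevScapTKO replicate 3, 0.18 without RevScapTKO replicate 2, 0.71 without RevScapTKO replicate 1 and -0.0886 with the marker covariate. The part of these other cells in the results above, other than through the covariate, was not tested.

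**Figure D5:**
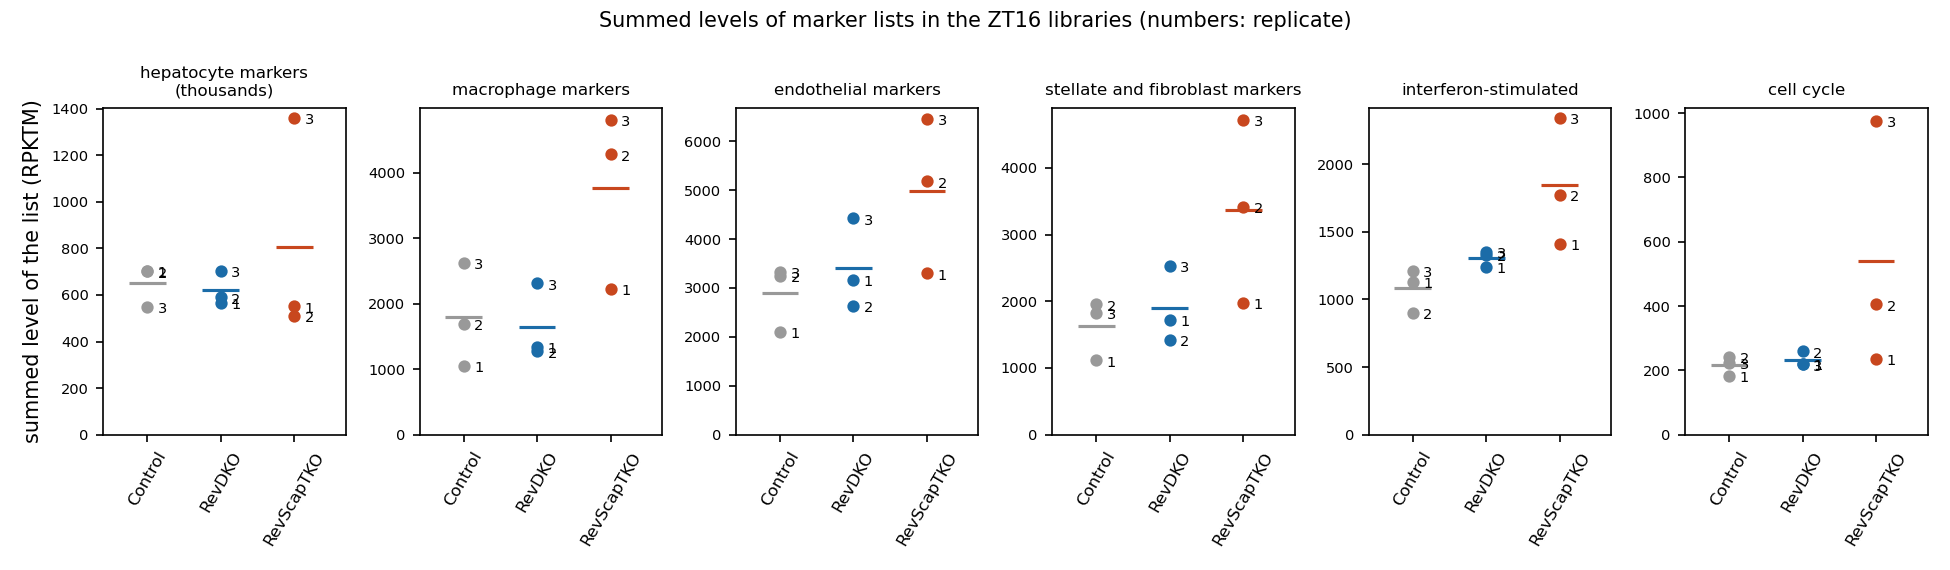
Summed level (vertical axes, RPKTM, each from 0, hepatocyte markers divided by 1000) of 6 gene lists in the single ZT16 libraries of Control, RevDKO and RevScapTKO, with the replicate number beside each point and the group mean as a bar. RevScapTKO replicates 2 and 3 lie above every other library for the macrophage, endothelial, stellate, interferon-stimulated and cell cycle lists. RevScapTKO replicate 3 also has the highest hepatocyte marker sum, in which Alb took the highest of the values that all libraries share.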

How the data were processed

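Hepatocytes were isolated by liver perfusion and digestion, and ribosomal RNA was removed before strand-specific libraries were made. The authors aligned reads to mm9 with STAR and quantified RefSeq transcripts with HOMER (versions and use of strand not given in the sources used here). The deposited table holds RPKTM, an RPKM-type unit scaled to 10000000 reads, quantile normalized by the authors over its 36 hepatocyte libraries, so the depth of a library is unknown and no counts can be used. The other deposited tables, of Kupffer cells and of other knockouts, were not used here.

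For a gene symbol with several transcripts the one with the highest table mean was taken, and genes with at least 3 columns over 5 RPKTM were kept. Of 42322 transcripts, 91 had no symbol (0.0610% to 0.0906% of a column sum) and were left out. Differences of log2(RPKTM + 1) were tested with limma 3.58.1 in R 4.3.3 (limma-trend, two-sided) in one fit of 12 group means, with 24 residual degrees of freedom, and p-values were adjusted by Benjamini-Hochberg over all genes kept. The fit was also run on simulated data with independent normal noise for each gene, without shifts shared by many genes of a library. Alternatives were other pseudocounts, filters and scalings, fewer libraries, all transcripts, a replicate block, limma's library (array) weights, the mean level of macrophage, endothelial and stellate markers as a covariate, and leaving out single libraries. No 2 libraries were identical, and over the 6 libraries compared Pearson's r across genes was 0.949 to 0.977 within and 0.925 to 0.962 between genotypes. Members and lists were chosen with earlier results of these data known. Named were the targeted genes, members of the 5 SREBP and synthesis lists, up to 4 called members per direction of each other list with a well-known member that did not pass, outside the lists the 10 largest rises and falls with groups apart and a higher group mean of at least 50 RPKTM, and the 10 genes with the smallest p for the time difference. Some genes that this rule names are not reported here. Promoters were read from the mm9 genome sequence at the starts given in the table.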

Additional observations from a re-analysis of the deposited data

How the results depend on the processing

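The count of 183 genes at ZT16 ranged from 146 to 219 under the alternatives that kept all libraries with equal weight and no covariate. It was 144 with the marker covariate and 570 with library weights, where 32.3% of calls were rises, against 16.9%. Leaving out single libraries gave 116 to 382, with 11.3% to 24.3% rises. The replicate block gave 219 genes, 182 of them among the 183. Deviations of same-numbered RevDKO and RevScapTKO libraries from their group means correlated at 0.05, -0.0047 and 0.22. The last, of the replicates 3, was the highest of all pairs, while RevScapTKO replicate 1 correlated best with RevDKO replicate 2 (0.14). Such correlations, of deviations from means of 3, cannot show whether same-numbered libraries were handled together. The time difference had 0 genes under each alternative except without a filter, where it had 1 (E330020D12Rik). RevDKO against Control had 40 genes, 169 with library weights and 22 to 44 with single libraries left out (23 without RevDKO replicate 1 and 22 without RevDKO replicate 3). RevScapTKO against Control had 432 genes, 843 with library weights, 271 with the marker covariate and 232 to 800 with single libraries left out (800, 232 and 266 without RevScapTKO replicates 1, 2 and 3). The alternatives for these contrasts with Control were added after the data were seen.

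Of 81 genes that the naming rule covers and that passed, 55 passed under every alternative run. Beside the losses without single libraries given above, calls were lost without a filter (Abcc12, Cyp39a1, Cyp7b1, Ehhadh, Gm3219, Gstt1, Mid1ip1, Mup11, Mup7, Pklr, Pnpla3, Sc5d, Sds and Selenbp2), with the 6 libraries alone (Abcc12, Bhlhe40, Cyp39a1, Ehhadh, Fkbp11, Gls2, Gpat4, Gpr135, Sds, Selenbp2, Tecr and Thrsp among them), with the 24 libraries of both knockouts (Abcc12, Bhlhe40, Ehhadh, Gls2, Gpat4, Mid1ip1, Mup11, Mup7, Pklr, Scap and Sds), with the marker covariate (Abcc12, Bhlhe40, Ehhadh, Gpat4, Gstt1, Mid1ip1, Pklr, Pnpla3, Sc5d, Scap and Sds) and under other pseudocounts or a stricter filter (Abcc12 and Pnpla3). Genes whose difference changed sign were all short of the threshold. Cd36 (-0.02) became 0.0032 after division by the median ratio, 0.20 with library weights, 0.27 without RevDKO replicate 3 and 0.29 without RevScapTKO replicate 1. Mbtps2 became 0.021 with library weights, 0.0803 without RevDKO replicate 2 and 0.0659 without RevScapTKO replicate 1. Ggps1 became -0.13 with the marker covariate and -0.010039 without RevDKO replicate 3. Hacd1 became -0.13 without RevDKO replicate 3, Hacd2 -0.0159 without RevScapTKO replicate 2 and Cyp7a1 0.0259 without RevScapTKO replicate 1. Without RevScapTKO replicate 3 Cyp2f2 became 0.28 and Mlxipl 0.10. The cause of these changes was not tested. Leaving out a library assumes that the remaining pair varies like the other groups, and without counts the depth behind a value is unknown, so low values such as those of Hmgcs1, Elovl7 and Abcc12 carry an unknown counting error.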

Other observations

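Genes near Scap held more calls than the table as a whole, a pattern noticed in the values, with windows chosen after they were seen. Within 5 Mb of Scap on chromosome 9, 10 of 130 genes tested passed at ZT16 (7.69%), of which 9 fell, Scap among them, and within 10 Mb 11 of 180 did (6.11%), against 1.37% of all genes. Over the whole of chromosome 9 the share was 17 of 725 (2.345%), and chromosome 14, which holds Nr1d2, had 16 of 460 (3.478%). Acpp, a prostatic acid phosphatase gene, measured 21.3, 26.01 and 41.6 RPKTM in RevDKO and 0, 0 and 0.183 RPKTM in RevScapTKO, with 15.5, 19.6 and 12.99 RPKTM in Control, so that it was all but missing in RevScapTKO alone. Rpl29, a ribosomal protein gene with many pseudogene copies, measured 36.2, 36.5 and 42.1 RPKTM in Control, 44.9, 40.99 and 44.8 RPKTM in RevDKO and 1.06, 1.16 and 1.25 RPKTM in RevScapTKO. Glb1, named above among the largest falls, lies in the same window. The differences of the neighbours at the other times had the same sign for Acpp (-5.33, -5.68 and -5.92 at ZT4, ZT10 and ZT22) and Rpl29 (-2.92, -4.43 and -3.53). The RevScapTKO mice carry a floxed Scap allele on chromosome 9 that the RevDKO mice do not, so allele origin and loss of Scap cannot be told apart here. Chromosome 14 had the highest share of calls of all chromosomes. Gm3219 (chr14:35158241) and Ncoa4 (chr14:32978772), named above among the largest rises, lie on it. The origin of the alleles on chromosome 14 was not tested.

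Chrna4, a subunit of the nicotinic acetylcholine receptor, measured 54.3, 26.7 and 14.98 RPKTM in RevDKO and was listed at 0 in every RevScapTKO library of ZT16, with 2.66, 7.30 and 11.5 RPKTM in Control. It was the only called gene listed at 0 throughout RevScapTKO.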
